A study of Homo sapiens with 6 samples.

Results

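Genes for importing proteins into mitochondria and keeping them folded were measured by RNA sequencing in RS4;11 cells without and with asparagine. RS4;11 is an established human B-cell precursor acute lymphoblastic leukemia line with a KMT2A::AFF1 fusion. Members were the rows of the deposited table whose symbol starts with TIMM or TOMM, or is 1 of 15 named chaperone, peptidase and protease genes, which gave 39 of 11911 genes. The groups were 3 libraries titled as RS4;11 without asparagine (depleted), for which the series gives RNA extraction 16 hours after withdrawal, and 3 libraries titled as RS4;11 with asparagine. For all 6 samples the labels enter growth in mixed DMEM and IMDM with 10% serum and then an asparagine-free medium with 10% dialyzed serum, so how the medium of the cells with asparagine differed is not stated. The column names of the depleted arm hold "aspg" and those of the other arm "unt", and the labels do not say whether "aspg" means asparaginase. All 6 column names begin with "Ctrl", a word that the sample titles do not hold or explain. All samples are of a single line and nothing says that replicates were separate cultures, so the spread behind the p-values may be a technical one.

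Nearly all mitochondrial proteins are encoded in the nucleus, made in the cytosol and imported. They enter through the TOM complex of the outer membrane. The TIM23 complex and its HSP70 motor then pull in precursors with a cleavable presequence, while the small TIM chaperones hand carrier proteins to the TIM22 complex in the inner membrane. In the matrix a processing peptidase removes presequences, the HSP60 and HSP10 chaperonin folds proteins, and ATP-dependent proteases such as LON and ClpXP degrade damaged ones.

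Taking the common step between values of a library as 1 read, the libraries held 29971364 to 40577308 reads in the table in the depleted arm and 36611101 to 51127073 with asparagine, and every member had at least 170 reads in each library. Values are normalized CPM, read counts deposited as scaled for depth, so a change in total RNA per cell could not be seen, and fewer expressing cells and less RNA per cell cannot be told apart. All 8 B-cell precursor markers and both markers of KMT2A-fusion leukemia (HOXA9 and MEIS1) were in the table. By contrast, 0 of 3 T cell, 0 of 4 myeloid and 0 of 2 erythroid markers were. The fibroblast marker COL1A1 was at 0.938 to 2.35 CPM in depleted and 3.61 to 4.47 CPM in asparagine-supplied libraries. Presence does not imply a high level, as the B-cell precursor marker DNTT was about as low as COL1A1. DNTT had 1.596 to 1.689 CPM in depleted libraries and 3.092 to 4.219 CPM with asparagine. Levels of these markers also moved in both directions. VPREB1 had 94.05 to 169.9 CPM in depleted libraries and 420.1 to 455 CPM with asparagine. PAX5 had 1257 to 1460 CPM in depleted libraries and 998.1 to 1016 CPM with asparagine. Depleted library 1 stood apart. Across all genes tested its log2 values correlated at 0.940 and 0.933 (Pearson's r) with depleted libraries 2 and 3, which correlated at 0.996 with each other, and the difference followed transcript GC content. In the highest of 5 GC classes of genes, the median shifts from the mean with asparagine were -0.091, -0.86 and -0.89 in depleted libraries 1, 2 and 3, and in the lowest class 0.033, 0.81 and 0.86. For members whose change rested mainly on depleted libraries 2 and 3, values of depleted library 1 are therefore also given. Calls of the members are also given after a GC correction, which removes a smooth trend over GC content from each library.

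Most import and folding genes fell in depleted cells, and a few rose. Of the 39 members, 23 were lower and 6 higher (limma on log2(CPM + 1), Benjamini-Hochberg adjusted p under 0.05 over 11892 genes), against backgrounds of 26.2% lower and 25.1% higher, or 51.3% in either direction, among all genes tested. That is 59.0% lower and 15.4% higher among the members, whose median log2 fold change (depleted minus with asparagine) was -0.64, beside 0.01 for all genes. A decrease of at least 1 log2 unit was called in 10 members (background 11.3%), and an increase of that size in 0 (background 10.7%). The 6 that rose were HSPA9, LONP1, TIMM9, TOMM70, YME1L1 and OMA1, and the 10 that did not pass were TOMM20, TIMM23B, TIMM44, TIMM22, TIMM10B, TIMM8A, TIMM8B, PMPCB, CLPX and AFG3L2. The groups did not overlap in all 29 called members, and in 25 members in all the depleted values lay below (background 30.8%) and in 8 above (background 30.2%) every value with asparagine. The counts depended on single libraries. Without depleted libraries 1, 2 and 3 in turn, 27, 16 and 16 members were lower (backgrounds 41.3%, 16.6% and 18.1%) and 8, 2 and 3 higher (backgrounds 40.5%, 16.0% and 17.3%). Without libraries 1, 2 and 3 with asparagine, 15, 15 and 17 were lower (backgrounds 15.5%, 15.3% and 18.3%) and 2, 2 and 3 higher (backgrounds 14.8%, 14.5% and 17.4%). The counts over all genes moved with the same libraries. Depleted library 1 alone against the libraries with asparagine gave 21 lower (background 26.9%) and 5 higher (background 27.1%).

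**Figure D1:**
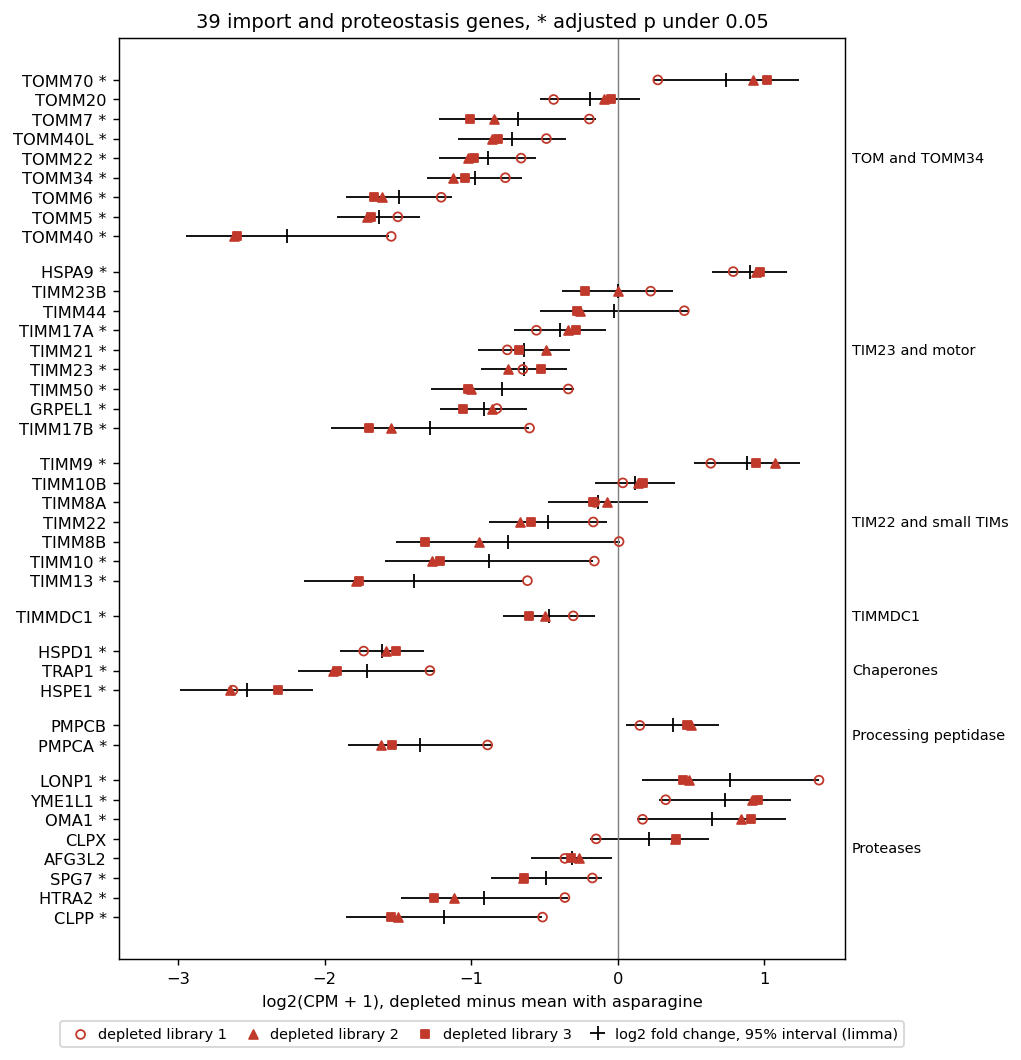
Log2(CPM + 1) of the 39 genes in each depleted library minus the mean with asparagine (x axis), by functional class, with the limma log2 fold change and its 95% interval in black. Asterisks mark the 29 genes with an adjusted p under 0.05, of which HSPA9, LONP1, TIMM9, TOMM70, YME1L1 and OMA1 lie to the right of 0, and open circles show depleted library 1.

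In the class of the outer membrane translocase, which here includes the cytosolic TOMM34, 7 of 9 genes fell and 1, TOMM70, rose (median log2 fold change -0.89). That is 77.8% lower and 11.1% higher, beside 26.2% and 25.1% of all genes tested. TOMM40 encodes the channel of the complex. Its values were 78.2, 36.7 and 37.1 CPM in depleted libraries 1, 2 and 3 and 230.5, 244.5 and 216.5 CPM with asparagine (log2 fold change -2.25, SE 0.29, limma adjusted p = 0.00144). The depleted values were all under the values with asparagine, and library 1 was the least changed of them. TOMM5 and TOMM6 are small subunits that stabilize the complex. TOMM5 had 34.9, 30.04 and 30.6 CPM in depleted cells and 101, 99.98 and 100.4 CPM with asparagine (log2 fold change -1.63, SE 0.12, limma adjusted p = 0.000233), and the depleted libraries were nearly level with each other. TOMM6 had 68.9, 51.9 and 49.8 CPM in depleted cells and 155, 162 and 163.5 CPM with asparagine (log2 fold change -1.49, SE 0.15, limma adjusted p = 0.000667). All annotated exon bases of TOMM6 also lie in the same-strand gene AL365205.1, so its reads are uncertain. The counting by strand is not stated, and of the exon bases of TIMM8B, TRAP1, TIMMDC1, HTRA2 and TOMM40L 20.1% to 30.1% overlap a single gene of the opposite strand. A further such gene, AUP1, overlaps 16.1% of HTRA2, and 14.9% and 11.5% of TIMM9 overlap KIAA0586 and TOMM20L. Of the exon bases of TOMM5, 14.27% and 9.33% overlap the same-strand genes AL138752.2 and AL513165.2. Of those of TIMM13, 13.03% overlap LMNB2 on the same strand and 15.86% overlap TMPRSS9 on the opposite strand.

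Among the receptor genes of this complex TOMM70 rose, TOMM22 fell and TOMM20 did not pass. TOMM70, the receptor that takes carrier precursors from cytosolic chaperones, had 158, 249 and 266 CPM in depleted cells and 125, 126 and 141 CPM with asparagine (log2 fold change 0.74, SE 0.21, limma adjusted p = 0.0243). Its depleted values were all higher, with library 1 nearest to the values with asparagine. TOMM22, the central receptor, fell to 72.5 ± 10.5 CPM in depleted cells, against 134 ± 6.95 CPM with asparagine (SD, n = 3 each, here and below; log2 fold change -0.89, limma adjusted p = 0.00289). TOMM20, the presequence receptor, had 134, 171 and 177 CPM in depleted cells and 169, 187 and 192 CPM with asparagine (log2 fold change -0.19, 95% interval -0.53 to 0.15, limma adjusted p = 0.295), and the groups overlapped. TOMM40L, a paralog of the channel gene, fell to 15.2 ± 2.39 CPM, against 25.6 ± 2.13 CPM with asparagine (log2 fold change -0.72, limma adjusted p = 0.00908). The cytosolic cochaperone gene TOMM34 and the small subunit gene TOMM7 fell by 0.98 and 0.68 on the log2 scale (limma adjusted p = 0.00185 and 0.0412). TOMM7 had 31.4, 19.65 and 17.4 CPM in depleted libraries 1, 2 and 3 and 33.8 to 39.35 CPM with asparagine. Library 1 was thus close to the values with asparagine, and the log2 fold change was -0.89 after the GC correction. The calls of TOMM70 and TOMM7 were lost when any 1 library other than depleted library 1 was left out (limma adjusted p = 0.0546 to 0.0866 and 0.0974 to 0.127).

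In the presequence translocase and its motor, 6 of 9 genes fell, and HSPA9 rose (66.7% lower and 11.1% higher, beside 26.2% and 25.1% of all genes tested). HSPA9 encodes mortalin, the mitochondrial HSP70 that drives the motor and also folds proteins in the matrix. It had 746, 833 and 847 CPM in depleted cells and 407, 435 and 454 CPM with asparagine (log2 fold change 0.90, SE 0.11, limma adjusted p = 0.00111). All depleted libraries were raised by a similar amount, library 1 included. GRPEL1, the nucleotide exchange factor that resets this HSP70, went the other way. It had 44.9, 43.8 and 38.04 CPM in depleted cells and 77.0, 84.5 and 79.6 CPM with asparagine (log2 fold change -0.91, SE 0.12, limma adjusted p = 0.00172), with no overlap.

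The channel-forming genes fell. TIMM17B had 59.2, 30.2 and 27.1 CPM in depleted cells and 94.4, 91.4 and 85.2 CPM with asparagine (log2 fold change -1.28, SE 0.29, limma adjusted p = 0.0103), and depleted library 1 lay well above the other two. Its paralog TIMM17A had 51.2, 59.5 and 62.01 CPM in depleted cells and 69.6, 78.9 and 78.7 CPM with asparagine (log2 fold change -0.39, SE 0.13, limma adjusted p = 0.0431), and here depleted library 1 was the lowest. TIMM23 fell to 20.3 ± 1.62 CPM in depleted cells, against 32.07 ± 0.705 CPM with asparagine (log2 fold change -0.64, limma adjusted p = 0.00631). Its near-identical copy TIMM23B stood at 9.78 ± 1.68 CPM in depleted cells and 9.71 ± 0.755 CPM with asparagine (95% interval of the log2 fold change -0.38 to 0.38, limma adjusted p = 1), and reads of these copies may be split between them. TIMM50, the receptor facing the intermembrane space, and TIMM21, which links the complex to TOM, fell by 0.79 and 0.64 on the log2 scale (limma adjusted p = 0.0184 and 0.0078). TIMM50 had 119.3, 74.8 and 74.05 CPM in depleted libraries 1, 2 and 3 and 139.4 to 161.9 CPM with asparagine. TIMM44, the scaffold that tethers the motor, did not pass (limma adjusted p = 0.925). It had 156, 94.9 and 93.2 CPM in depleted cells and 109.7, 119 and 111 CPM with asparagine, so library 1 lay above and libraries 2 and 3 below every value with asparagine. TIMM44 was named beside the rule for this split, after its values were seen. The call of TIMM17A was lost without any 1 library other than depleted library 1 (limma adjusted p = 0.0691 to 0.157), and that of TIMM50 without depleted library 2 or 3 or library 1 or 2 with asparagine (0.0606 to 0.0742).

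Among the carrier translocase and small TIM genes, TIMM9 rose, and TIMM13 and TIMM10 fell, out of 7. That is 28.6% lower and 14.3% higher, beside 26.2% and 25.1% of all genes tested. Small TIMs work as hexamers, TIMM9 with TIMM10 and TIMM8A with TIMM13, that shield hydrophobic precursors in the intermembrane space. TIMM9 had 35.3, 48.1 and 43.9 CPM in depleted cells and 21.7, 22.1 and 23.4 CPM with asparagine (log2 fold change 0.88, SE 0.15, limma adjusted p = 0.00398). Every depleted value was higher. Its partner TIMM10 had 37.8, 17.01 and 17.7 CPM in depleted cells and 39.8, 44.4 and 42.9 CPM with asparagine (log2 fold change -0.88, SE 0.30, limma adjusted p = 0.0445), with depleted library 1 close to the values with asparagine. TIMM13 had 125, 54.97 and 55.9 CPM in depleted cells and 198, 203 and 177 CPM with asparagine (log2 fold change -1.39, SE 0.32, limma adjusted p = 0.0111), again with library 1 between the rest and the values with asparagine. The call of TIMM10 was lost without any 1 library other than depleted library 1 (limma adjusted p = 0.104 to 0.138).

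The other genes of this class did not pass. TIMM8B had 56.6, 28.6 and 22.01 CPM in depleted cells and 52.5, 60.1 and 56.1 CPM with asparagine (log2 fold change -0.75, limma adjusted p = 0.0897), so depleted library 1 lay within the range with asparagine. TIMM8A, the gene mutated in deafness-dystonia syndrome, stood at 15.2 ± 0.582 CPM in depleted cells and 16.8 ± 2.33 CPM with asparagine (log2 fold change -0.13, limma adjusted p = 0.456). TIMM10B, which docks the small TIMs on the carrier translocase, stood at 47.3 ± 2.35 CPM in depleted cells and 43.6 ± 1.06 CPM with asparagine (log2 fold change 0.12, limma adjusted p = 0.422). TIMM22, the carrier channel, stood at 27.3 ± 5.49 CPM in depleted cells and 37.9 ± 2.97 CPM with asparagine (log2 fold change -0.47, limma adjusted p = 0.0527). Its depleted libraries 1, 2 and 3 had 33.57, 23.48 and 24.74 CPM, and its log2 fold change was -0.37 after the GC correction. TIMMDC1, whose product assembles respiratory complex I despite its name, fell by 0.47 on the log2 scale (limma adjusted p = 0.0237), a call lost without any 1 library other than depleted library 1 (0.0704 to 0.104).

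The chaperone genes outside the import motor, HSPD1, HSPE1 and TRAP1, all fell, whereas HSPA9 rose (above). HSPD1 encodes the HSP60 chaperonin (GRCh38 chromosome 2, 197486581 to 197516737, minus strand) and HSPE1 its HSP10 lid (chromosome 2, 197499994 to 197503457, plus strand), and these neighbours are read in opposite directions from a shared start region. HSPD1 had 176, 196 and 205.5 CPM in depleted cells and 540, 587 and 641.5 CPM with asparagine (log2 fold change -1.61, SE 0.12, limma adjusted p = 0.000257). HSPE1 had 5.30, 5.21 and 6.78 CPM in depleted cells and 32.6, 48.2 and 34.6 CPM with asparagine (log2 fold change -2.53, SE 0.19, limma adjusted p = 0.00026). For both genes the depleted libraries were close to one another, library 1 among them, and far below all values with asparagine. TRAP1, the mitochondrial HSP90, had 139, 87.2 and 89.1 CPM in depleted cells and 349, 355 and 313.5 CPM with asparagine (log2 fold change -1.71, SE 0.20, limma adjusted p = 0.000973). GENCODE names 17 pseudogenes of HSPD1 and 26 of HSPE1, and 14.2% of HSPE1 exon bases overlap HSPD1 and 9.71% a same-strand read-through gene, HSPE1-MOB4, so HSPE1 reads in particular may be undercounted or shared.

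The start regions of HSPD1, HSPE1, HSPA9 and LONP1 are shown because the first pair fell while the second pair rose. Letters of 4 known motifs were sought on both strands in RefSeq windows of 300 bases (GRCh38.p14), 250 before to 50 after a start, for 34 members with 38 windows. They were a heat shock element (3 alternating units of GAA and TTC, each parted from the next by 2 free bases), the C/EBP and ATF response element TGATGNAA, the E-box CACGTG, known for binding MYC, and the NRF1 site (GCGCA and GCGC parted by 1 free base). These motifs may overlap one another. A window of HSPD1 held the heat shock letters, which occurred in 0.49% of all windows (0.345% of the windows of genes tested) and in no other member's window. This window (chr2:197499791-197500090) was not the HSPD1 window with the E-box (chr2:197500225-197500524). On the minus strand the heat shock site lies after the HSPD1 start of the E-box window. It also lies just before the HSPE1 window (chr2:197500129-197500428), so its absence there depends on the window edge. The capitals below mark 2 overlapping matches of the heat shock letters, and the E-box in the others.
HSPD1, heat shock element, chr2:197500061-197500090, minus strand: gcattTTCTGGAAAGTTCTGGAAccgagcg
HSPD1, E-box, chr2:197500345-197500374, minus strand: cggccctggcgaCACGTGaaaaaatcaccc
HSPE1, E-box, chr2:197500345-197500374, plus strand: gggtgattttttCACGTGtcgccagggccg
HSPA9, E-box, chr5:138575403-138575432, minus strand: cgcccctcacccCACGTGgttggaggtttc
LONP1, E-box farther from the start, chr19:5720341-5720370, minus strand: ctcacagccttcCACGTGaccggaaaaggc
LONP1, E-box nearer to the start, chr19:5720178-5720207, minus strand: cgcgccgggcgtCACGTGcgtttcgcggcg
All of these sites lie inside the GENCODE spans of their own genes (chromosome 5, 138553756 to 138575724 for HSPA9, and chromosome 19, 5691834 to 5720572 for LONP1, both minus strand), and the HSPD1 sites lie inside that of HSPE1 too. The E-box letters of HSPD1 and HSPE1 are the same bases read on opposite strands, and every site shown lies before the start of its window. E-box letters were in 7 of the 34 members, of which 2 rose, 3 fell and 2 did not pass, which is 18.4% of the members' 38 windows, beside 7.26% of all windows and 9.55% of the windows of genes tested. NRF1 letters were in 10 members, of which 2 rose, 6 fell and 2 did not pass, which is 28.9% of the members' windows, beside 5.78% of all windows and 10.4% of those of genes tested. The NRF1 letters of HSPD1 and HSPE1 are also the same bases, and 2 overlapping windows of SPG7 hold the same sites. These windows are therefore not separate finds. The C/EBP and ATF letters were in the windows of PMPCB and TIMM22 alone among the members, which did not pass, and in 3.62% of all windows and 1.94% of those of genes tested. A match is a description of the letters and not a shown binding site.

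Of the processing peptidase genes PMPCA fell and PMPCB did not pass, and the protease genes went both ways. PMPCA, the regulatory subunit of the presequence peptidase, had 88.3, 52.9 and 55.95 CPM in depleted cells and 170.2, 172 and 152 CPM with asparagine (log2 fold change -1.35, SE 0.21, limma adjusted p = 0.00272). PMPCB, the catalytic subunit, had 142, 181 and 177.5 CPM in depleted cells and 128, 131 and 124 CPM with asparagine (log2 fold change 0.38, SE 0.13) and did not pass (limma adjusted p = 0.0513), although its depleted values were all higher.

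Of the 8 protease genes, LONP1, YME1L1 and OMA1 rose and CLPP, HTRA2 and SPG7 fell. That is 37.5% in each direction, beside 25.1% higher and 26.2% lower among all genes tested. LONP1, which degrades oxidized and misfolded matrix proteins, had 868, 470.0 and 456 CPM in depleted cells and 353, 349 and 303.5 CPM with asparagine (log2 fold change 0.77, SE 0.25, limma adjusted p = 0.0406). Every depleted value was higher, and library 1 was far above libraries 2 and 3. YME1L1, the inner membrane protease that faces the intermembrane space, had 210.1, 317 and 325 CPM in depleted cells and 157, 164 and 181.5 CPM with asparagine (log2 fold change 0.73, SE 0.19, limma adjusted p = 0.0177). OMA1, the protease that cleaves OPA1 and DELE1 under stress, had 19.2, 31.2 and 32.8 CPM in depleted cells and 16.6, 16.4 and 17.97 CPM with asparagine (log2 fold change 0.64, SE 0.22, limma adjusted p = 0.0431). In YME1L1 and OMA1 library 1 was the depleted value nearest to those with asparagine, the reverse of LONP1.

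CLPP, the peptidase of ClpXP, had 66.7, 33.1 and 32.06 CPM in depleted cells and 98.7, 99.6 and 88.6 CPM with asparagine (log2 fold change -1.19, SE 0.28, limma adjusted p = 0.0131). Its unfoldase partner CLPX had 104, 151 and 152 CPM in depleted cells and 114, 116 and 116 CPM with asparagine and did not pass (log2 fold change 0.22, limma adjusted p = 0.319), with library 1 below and libraries 2 and 3 above the values with asparagine. HTRA2, a serine protease of the intermembrane space, had 43.7, 25.4 and 23.1 CPM in depleted cells and 58.3, 57.5 and 53.4 CPM with asparagine (log2 fold change -0.91, SE 0.24, limma adjusted p = 0.0192). SPG7, the paraplegin subunit of the matrix-facing protease, fell to 98.07 ± 19.6 CPM in depleted cells, against 136 ± 4.51 CPM with asparagine (log2 fold change -0.49, limma adjusted p = 0.0393). Its depleted libraries 1, 2 and 3 had 120.7, 86.54 and 86.94 CPM. AFG3L2, the other subunit, stood at 99.7 ± 3.45 CPM in depleted cells and 124.5 ± 10.3 CPM with asparagine and did not pass (log2 fold change -0.31, limma adjusted p = 0.0599), though the groups did not overlap. Without any 1 library other than depleted library 1 the calls of HTRA2, SPG7 and OMA1 were lost (limma adjusted p = 0.0515 to 0.0716, 0.094 to 0.135 and 0.0919 to 0.137). That of LONP1 was lost without depleted library 2 or any 1 library with asparagine (0.0528 to 0.114), that of YME1L1 without depleted library 2 or 3 or library 1 or 2 with asparagine (0.0602 to 0.0723), and that of CLPP without library 1 or 2 with asparagine (0.0519 and 0.0529).

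**Figure D2:**
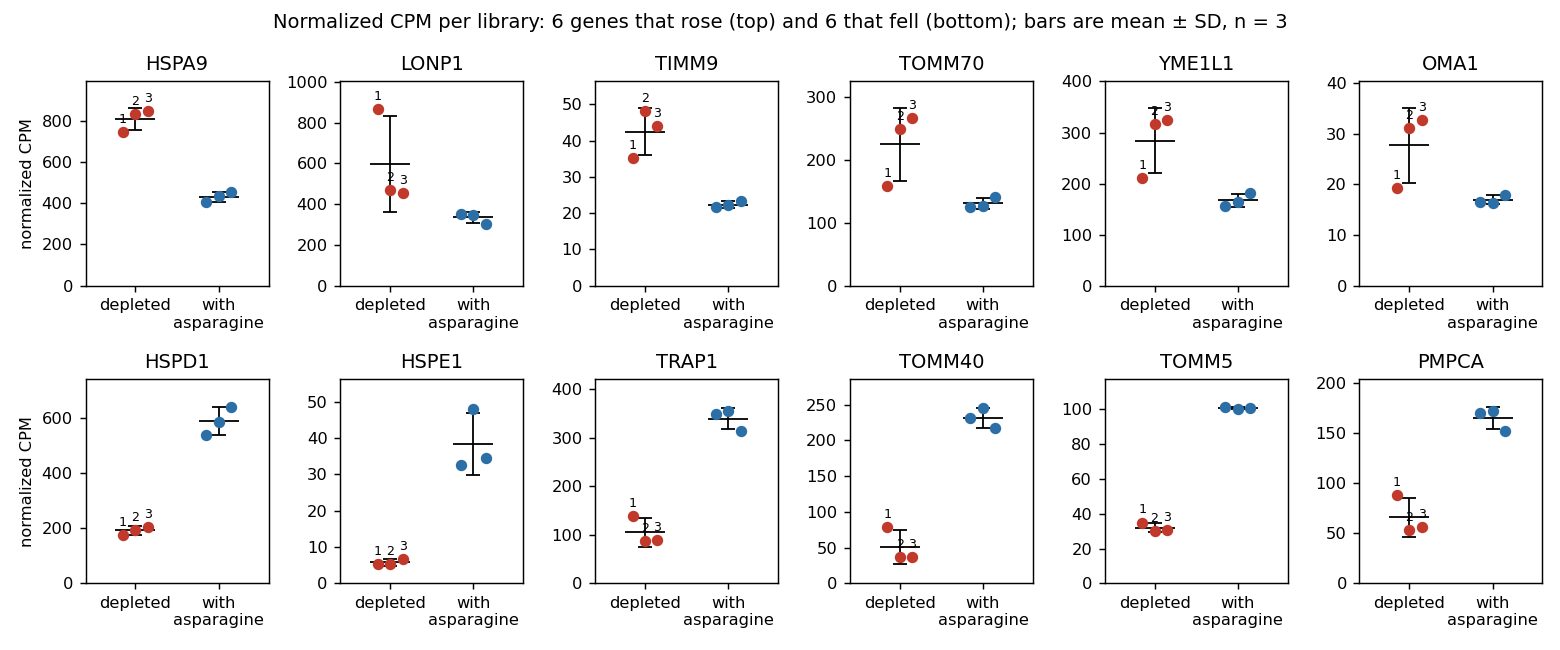
Normalized CPM per library (y axis, from 0) of the 6 members that rose (top row) and of 6 that fell (bottom row), in depleted libraries (red, numbered) and libraries with asparagine (blue), with mean ± SD of n = 3. In HSPA9 the depleted values of 746 to 847 CPM lie above 407 to 454 CPM, and in LONP1 depleted library 1 at 868 CPM stands apart from the others.

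Partner and paralog genes were compared by their log2 ratio within each library, over 13 pairs. An exact two-sided permutation test of 3 against 3 cannot go below p = 0.1, which is 0.13 after Benjamini-Hochberg adjustment over the pairs, so no pair could pass. For 10 pairs the groups did not overlap and the exact p was this smallest value. The share among other gene pairs was not counted. Among all single genes tested, the depleted values lay without overlap above in 30.2% and below in 30.8%. HSPA9 stood over GRPEL1 by 4.02, 4.22 and 4.44 log2 units in depleted libraries and by 2.39, 2.35 and 2.50 with asparagine, a difference of 1.82 (SE 0.13). TIMM9 stood against TIMM10 at -0.097, 1.45 and 1.27 in depleted libraries and at -0.85, -0.97 and -0.85 with asparagine, a difference of 1.76 (SE 0.49). PMPCA against PMPCB lay at -0.68, -1.75 and -1.65 in depleted libraries and at 0.41, 0.39 and 0.29 with asparagine, a difference of -1.72 (SE 0.34). In these pairs the log2 fold changes of the partners had opposite signs. PMPCB did not pass, however, and after the GC correction PMPCA and PMPCB shared a sign (-0.94 and -0.12).

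The channel gene and its paralog both fell, with TOMM40 over TOMM40L at 2.06, 1.36 and 1.34 in depleted libraries and 3.10, 3.10 and 3.16 with asparagine, a difference of -1.53 (SE 0.24). HSPD1 over HSPE1 lay at 4.81, 4.99 and 4.73 in depleted libraries and 4.01, 3.58 and 4.17 with asparagine, a difference of 0.92 (SE 0.19). CLPX over CLPP differed by 1.40 (SE 0.52), TIMM10 over TIMM10B by -0.996 (SE 0.40), TOMM20 over TOMM22 by 0.70 (SE 0.24) and TIMM23 over TIMM23B by -0.64 (SE 0.19). OMA1 over YME1L1 differed by -0.094 (SE 0.045), the smallest shift of the 13. Its groups were barely apart, the nearest values being -3.271 in depleted library 3 and -3.266 in library 3 with asparagine. The groups overlapped for TIMM17A over TIMM17B, TIMM8A over TIMM8B and AFG3L2 over SPG7 (exact p = 0.2, 0.4 and 0.5). After the GC correction the differences were nearer to 0 in PMPCA over PMPCB (-0.81), CLPX over CLPP (0.44), TIMM9 over TIMM10 (1.04), TOMM20 over TOMM22 (0.40), TIMM10 over TIMM10B (-0.55) and TOMM40 over TOMM40L (-1.10), and stood at 1.73 in HSPA9 over GRPEL1 and 0.78 in HSPD1 over HSPE1.

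**Figure D3:**
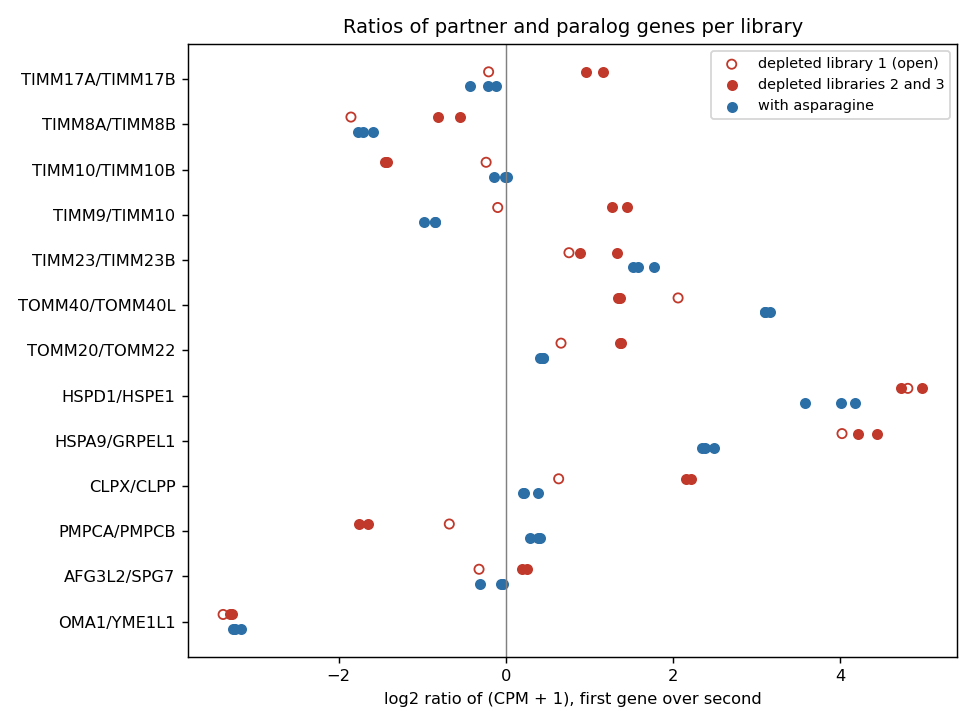
Log2 ratio of CPM + 1 of 13 gene pairs (x axis) in each depleted library (red, library 1 open) and each library with asparagine (blue). HSPA9 over GRPEL1 lies at 4.02 to 4.44 in depleted libraries against 2.35 to 2.50 with asparagine, and OMA1 over YME1L1 shows the smallest shift.

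Levels between genes can be compared only per transcript length, taken as the longest protein-coding transcript. In depleted cells LONP1 and HSPA9 had the highest mean levels of the 39 genes at 185 and 171 CPM per kilobase, followed by TOMM6 at 89.3 and HSPD1 at 78.4. LONP1 was first through depleted library 1: it had 268, 145 and 141 CPM per kilobase in depleted libraries 1, 2 and 3, where HSPA9 had 158, 176 and 179. TOMM6 and HSPD1 changed places between libraries of each arm. With asparagine the order was TOMM6 at 251.5, HSPD1 at 240.0, TRAP1 at 147 and TOMM5 at 124 CPM per kilobase, with LONP1 at 104 and HSPA9 at 91.4. The lowest levels were those of TIMM8A, TOMM40L and HSPE1 at 5.13, 5.43 and 6.07 CPM per kilobase in depleted cells, and of TIMM8A, OMA1 and TIMM23B at 5.69, 8.07 and 8.43 with asparagine, and neighbours in these lowest orders overlapped between libraries, except TIMM8A and OMA1 with asparagine.

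GC content moved with the depleted libraries among these genes as well. Over the 39 members, which share the libraries, Pearson's r between GC content and the difference of depleted libraries 2 and 3 from depleted library 1 was -0.82, and between GC content and the log2 fold change it was -0.46. After the GC correction 27 members were lower (background 33.4%) and 6 higher (background 35.5%, and 68.9% in either direction), with a median log2 fold change of -0.54. These included 22 of the 23 that fell and 5 of the 6 that rose. SPG7 and OMA1 no longer passed (log2 fold changes -0.028 and 0.19, limma adjusted p = 0.674 and 0.0523). TIMM44 was then higher (0.48, limma adjusted p = 0.00068), and TOMM20, TIMM22, TIMM8A, TIMM8B and AFG3L2 were lower. For the genes that rose the corrected log2 fold changes were 1.37 in LONP1, 0.61 in HSPA9, 0.51 in TIMM9, 0.32 in TOMM70 and 0.32 in YME1L1. The decreases of TOMM40 and PMPCA stood at -1.58 and -0.94. Decreases became smaller by over 1.5 times in TOMM40L, TIMM50, TIMM17B, TIMM10, TIMM13, CLPP and HTRA2 (-0.48, -0.33, -0.76, -0.54, -0.74, -0.58 and -0.47) and larger in TIMM17A and TIMM21 (-0.90 and -1.20). HSPD1, HSPE1 and TRAP1 stood at -1.74, -2.51 and -1.35. Without depleted library 1, all 29 calls held, PMPCB and CLPX were also higher (limma adjusted p = 7.35e-05 and 0.000297), and TIMM44, TIMM22, TIMM8B and AFG3L2 were also lower, at backgrounds of 40.5% higher and 41.3% lower (81.8% in either direction).

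**Figure D4:**
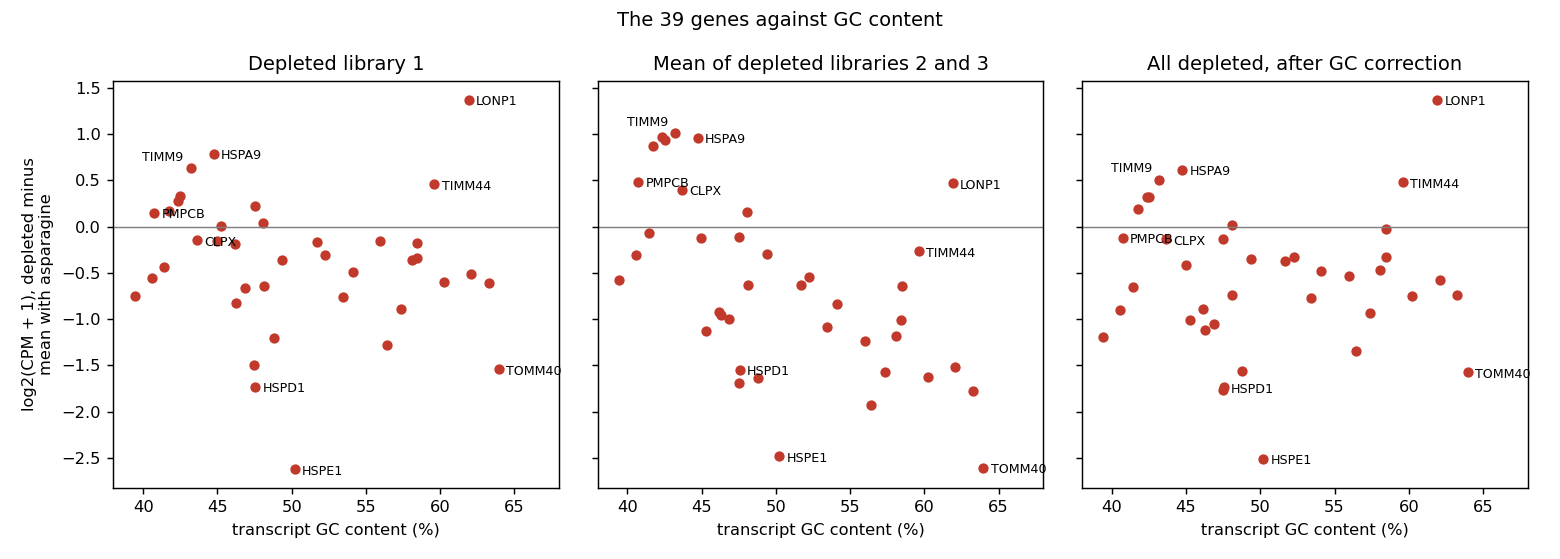
Difference from the mean with asparagine on the log2(CPM + 1) scale (y axis) of the 39 genes against transcript GC content in percent (x axis), in depleted library 1, in the mean of depleted libraries 2 and 3, and over all depleted libraries after the GC correction. HSPE1, HSPD1 and TOMM40 are low and HSPA9, LONP1 and TIMM9 high in each panel, while TIMM44 and CLPX change sides.

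Other genes of the pathway, from lists written beside the members, were counted in the same fit. Of 21 import partner genes tested, 8 were lower and 2 higher (median log2 fold change -0.32). That is 38.1% lower and 9.52% higher, beside 26.2% and 25.1% of all genes tested. DNLZ, which keeps mitochondrial HSP70 soluble, fell to 21.5 CPM in depleted cells, against 71.9 CPM with asparagine (log2 fold change -1.89, limma adjusted p = 0.00921), and ROMO1, a small inner membrane protein, to 32.2 CPM in depleted cells, against 93.2 CPM with asparagine (log2 fold change -1.72, limma adjusted p = 0.015). In both, depleted library 1 was the least changed. DNLZ had 38.7, 13.2 and 12.5 CPM in depleted libraries 1, 2 and 3, and ROMO1 had 59.2, 18.6 and 18.7 CPM. GRPEL2, the paralog of the exchange factor GRPEL1, rose to 45.6, 84.3 and 85.9 CPM in depleted libraries, against 23.8, 25.2 and 26.5 CPM with asparagine (log2 fold change 1.42, SE 0.25, limma adjusted p = 0.00451), where GRPEL1 fell. TIMM29, a subunit of the carrier translocase that the table lists as C19orf52 and that the symbol rule therefore leaves out, did not pass (log2 fold change -0.45, limma adjusted p = 0.163).

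Of 11 cristae and prohibitin scaffold genes, 8 were lower and 1 higher (72.7% and 9.09%, median -1.02). PHB, encoding prohibitin 1, fell to 58.7 CPM in depleted cells, against 226 CPM with asparagine (log2 fold change -1.97, limma adjusted p = 0.000808). C19orf70, a subunit of the cristae junction complex MICOS, and STOML2, a membrane scaffold for YME1L1, fell by 1.78 and 1.31 (limma adjusted p = 0.0098 and 0.0043). Of 11 other protease and quality control genes, 3 were higher and 2 lower (median 0.16). These shares of 27.3% higher and 18.2% lower stand beside 25.1% and 26.2% of all genes tested. ATAD1, which extracts mislocalized proteins from the outer membrane, rose by 1.05 on the log2 scale and PINK1, the kinase that marks damaged mitochondria, by 0.88 (limma adjusted p = 0.0186 and 0.0324), and CLPB, a disaggregase, fell by 0.88 (limma adjusted p = 0.0095). In depleted libraries 1, 2 and 3 ATAD1 had 64.2, 122.6 and 129.6 CPM, against 44.8 to 54.0 CPM with asparagine. PINK1 had 27.1, 13.5 and 14.1 CPM, against 8.15 to 10.1 CPM. Without library 1 or 2 with asparagine, 0 genes of this list were higher (backgrounds 14.8% and 14.5%) and 2 lower (backgrounds 15.5% and 15.3%). Of 6 stress signalling genes, 2 were higher and 2 lower (33.3% each, median -0.074). ATF5, the transcription factor tied to the mitochondrial unfolded protein response, rose to 1007, 716 and 675 CPM in depleted libraries, against 222, 219.7 and 220.0 CPM with asparagine (log2 fold change 1.83, SE 0.17, limma adjusted p = 0.000457), and DDIT3, which encodes CHOP, by 3.31 (limma adjusted p = 5.17e-05). HSF1 came next by size of change and did not pass (log2 fold change -0.67, limma adjusted p = 0.0746), and its groups overlapped. Its log2 fold change was 0.005 after the GC correction. EIF2AK1, the kinase that relays mitochondrial stress through DELE1, fell by 0.64 (limma adjusted p = 0.00484). After the GC correction the log2 fold changes were smaller in DNLZ, ATAD1 and CLPB (-1.11, 0.31 and -0.53) and larger in PINK1 (1.35), and all of these passed.

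Symbols starting with MRPL or MRPS gave 79 table entries, of which 2 are an antisense RNA and a pseudogene. Of the other 77, mitochondrial ribosomal protein genes, 36 were lower and 2 higher (median log2 fold change -0.44). Starts used for the respiratory chain and ATP synthase gave 87 entries, 4 of them noncoding RNAs or pseudogenes. Of the other 83, which include assembly factors of complex I, 66 were lower and 4 higher (median -0.92). Lower calls thus made up 46.8% and 79.5% of these lists, beside 59.0% of the 39 members and 26.2% of all genes tested. After the GC correction 48 of 77 and 52 of 67 with a GC value were lower (background 33.4%). No test of a difference between lists was made.

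**Figure D5:**
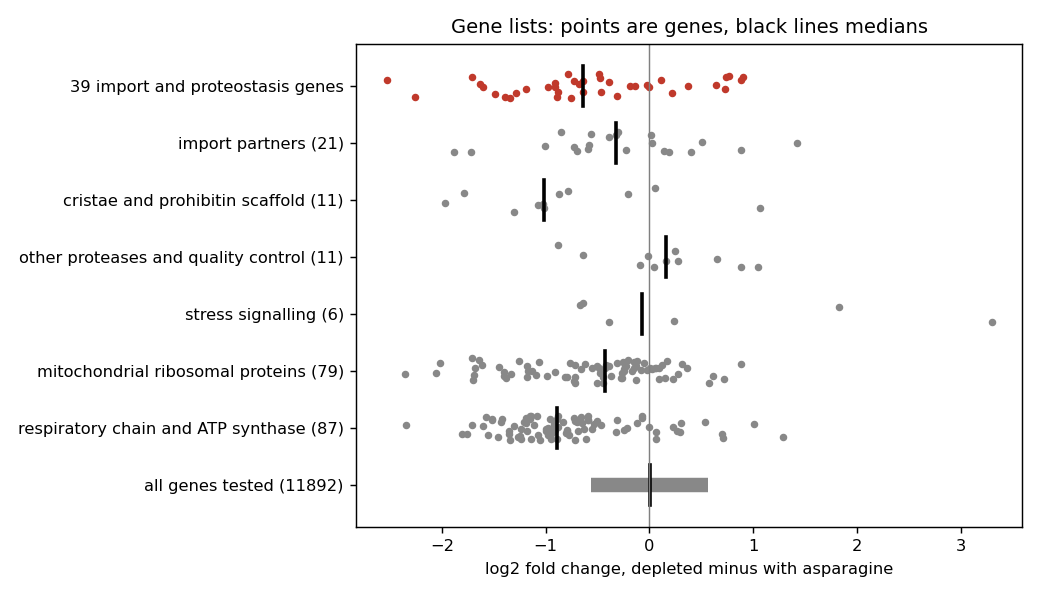
Log2 fold changes, depleted minus with asparagine (x axis), of the 39 members (red) and of other mitochondrial and stress lists (grey points, number tested in parentheses), with medians as black lines. The grey bar is the interquartile range of all 11892 genes, and the median of the members lies at -0.64 beside 0.01 for all genes. The last 2 lists hold all 79 and 87 table entries, 2 and 4 noncoding ones included.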

How the data were processed

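Per the labels' protocols, total RNA was extracted with Trizol and a company built the libraries. STAR, featureCounts (Subread), FastQC and GRCh38 are named in the submitters' processing notes. Tool versions, annotation, strand setting and scaling were not given in the sources used here, so reads of overlapping antisense genes may be mixed. The deposited table holds a depth-scaled signal (normalized CPM) for 11911 genes in 6 columns, matched to samples by arm and replicate number in the column names. Every value (100%) was a whole multiple of a per-library step within 1e-06 of a read, and column totals were 918783 to 1031234 CPM.

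Values were tested as log2(CPM + 1) in R 4.3.3 with limma 3.58.1 (group as the only term, intensity trend, Benjamini-Hochberg, threshold 0.05) on the 11892 genes that reached 1 CPM in 3 or more libraries. Fits were tested on simulated data. GC content came from GENCODE 29 (median over protein-coding transcripts, 95.5% of genes, all 39 members); the correction used a lowess span of 0.3. Genes named were all members by class, with values per library for those that rose, the 3 largest changes per class and the compared pairs, and up to 3 per further list. EIF2AK1 and TIMM29 were named beside this rule. Values per library of TOMM7, TIMM50, TIMM22, DNLZ, ROMO1, ATAD1 and PINK1 were added because depleted library 1 differed. Noncoding entries were left out of the lists chosen by the start of a symbol after their values were seen. Members, lists, pairs and the GC alternative were chosen with earlier results of these data known. Alternatives were other pseudocounts, filters, scalings and moderation, the replicate number as a block, the GC correction, and each library left out.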

Additional observations from a re-analysis of the deposited data

How the results depend on the processing

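Under 23 alternatives, 15 of the 29 called members kept their direction and call in each of them, and 14 lost a call in at least 1. The counts of all genes called higher and all genes called lower, and of members called higher and members called lower, stayed within 1.5 times except at a threshold of 0.01 (1612 and 1703 genes, 2 and 13 members) and without single libraries (1728 to 4812 and 1814 to 4913 genes, 2 to 8 and 15 to 27 members). Those fits rest on fewer libraries. Libraries of the same replicate number had correlations of deviations from their group means of 0.0832, -0.645 and 0.686. Depleted library 1 stood apart and weighs on all of these, so they cannot show whether the samples were paired. With the replicate block 6 members were higher and 20 lower, TOMM7, TIMM17A and TIMMDC1 no longer passing (limma adjusted p = 0.0545, 0.0711 and 0.0587), and 2824 and 2989 of all genes were called.

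Sign changes occurred in members that did not pass, and the cause was not tested. The log2 fold change of TIMM23B was 0.001473 with a pseudocount of 4, 0.006002 with trimmed mean and 0.005087 with median ratio scaling, 0.0007529 with voom and 0.2254 without depleted libraries 2 and 3, and -0.1129 to 0.1123 without single libraries. That of TIMM44 was 0.06891 after quantile normalization, 0.4788 after GC correction with or without the replicate block, 0.4427 with GC correction and without depleted library 1, 0.4551 without depleted libraries 2 and 3, and -0.2666 to 0.1005 without single libraries. TIMM8B stood at 0.009703 without depleted libraries 2 and 3. PMPCB and CLPX stood at -0.1231 and -0.1364 after GC correction with or without the replicate block, at -0.2658 and -0.1246 with GC correction and without depleted library 1, and CLPX at -0.1467 without depleted libraries 2 and 3. PMPCB was thus called in opposite directions. Without depleted library 1 it was lower with GC correction (limma adjusted p = 0.0143) and higher with no GC correction (limma adjusted p = 7.35e-05). With GC correction alone, and also without depleted library 1, the pair difference was -0.1436 and -0.1952 for TIMM17A/TIMM17B and -0.3188 and -0.3372 for AFG3L2/SPG7. Without depleted libraries 2 and 3 it was -0.1655 for TIMM8A/TIMM8B and -0.1878 for AFG3L2/SPG7. Voom, the fit to genes with a GC value alone and depleted library 1 alone, which is assumed to vary like the other group, were chosen after seeing the data. Planned count models (edgeR and DESeq2) were not run: the table lacks low genes, so the step taken as 1 read, on which voom rests, was not established independently. HSPE1, with 170 reads in its lowest library, is the member measured with the fewest reads.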
